A study of Mus musculus with 2 samples.

Results

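Mural cells are the cells wrapped around the outside of brain vessels, and they were taken here from single-cell RNA counts of mouse brain as barcodes with a UMI (unique molecular identifier, 1 per captured RNA molecule) of at least 3 of 9 genes. The genes were Vtn, Kcnj8, Abcc9, Rgs5, Pdgfrb, Higd1b, Atp13a5, Notch3 and Myh11. Of 19443 kept cells, 458 met the rule: 38 of 10076 in sorted brain and 420 of 9367 in total brain. Sorted brain pooled wild type (WT) and STING-KO mice, all male and 3 or 12 months old, whose cells had passed through FACS, a cell sort by fluorescence, and the sources used here do not name its gate. Total brain pooled unsorted cells of WT and STING-KO mice of both sexes, aged 2 and 24 months by the sample title, while its age label reads 240 months for the older mice. Young and aged mice were grouped by 2 for each genotype, and STING is the adaptor that relays detection of DNA in the cytosol. The STING-KO allele is not described in the sources used here. Each matrix holds 4 barcode suffixes, and the sources used here do not say which mice a suffix holds, so each matrix counts as 1 sample and no p-value is given. Sort, ages, sexes and software version differ together between the samples and cannot be told apart.

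Pericytes sit within the basement membrane of capillaries, where they hold up the blood-brain barrier and set capillary tone. They are recruited during development by PDGF-B, which endothelial cells release and the receptor Pdgfrb on mural cells detects. Smooth muscle cells form the contractile coat of arteries, arterioles and larger veins, and Notch3 signalling from the neighbouring endothelium keeps up their identity. The ATP-sensitive potassium channel of brain mural cells, built from the pore Kcnj8 and the regulatory subunit Abcc9, couples the energy state of the cell to its tone.

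Mural cells were 0.377% [0.267–0.517] of the kept cells of sorted brain and 4.48% [4.07–4.92] of those of total brain. Brackets hold 95% intervals, exact Clopper-Pearson for shares and exact Poisson for levels, and these cover only counting error. A level is the sum of a gene's UMIs in a class per 1000000 UMIs of the class (CPM). The matrices held 36822467 UMIs in 13499 barcodes of sorted brain and 48226525 UMIs in 14674 barcodes of total brain, with a median of 2293.5 and 1692 UMIs per kept cell. The mural cells had a median of 1073.5 UMIs in sorted brain and 8624.5 UMIs in total brain, where all other kept cells had 1636. With 51344 UMIs in all, 1 UMI was worth 19.5 CPM in the mural cells of sorted brain, against 0.178 CPM in those of total brain. Of the kept barcode sequences, 54 occurred in at least 2 suffixes and 0 in both samples. Of those 54, 2 belonged to a mural cell and none joined a mural cell with another.

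The label was checked against markers of the vessel wall and of 12 other cell types. The rule genes stood far above other cells, but most barcodes of total brain that met the rule also carried the RNA of endothelial cells, which line the vessel. Of the 420 mural cells of total brain, 289 had a UMI of at least 3 of 10 endothelial markers (Cldn5, Flt1, Pecam1, Cdh5, Ly6c1, Itm2a, Slco1a4, Slc2a1, Ptprb and Adgrl4). All 10 were detected in 224 of them, while 63 other mural cells had none of the 10. The remaining 131 cells, called endothelial-poor below in a division made after the data were seen, had a median of 1904 UMIs and the 289 endothelial-bearing cells 14992. The endothelial-poor cells held 6.59% of the mural UMIs and the endothelial-bearing cells 93.4%. Any level over all mural cells of total brain is therefore mostly a level of endothelial-bearing barcodes. Endothelial markers summed to 292 CPM [240–353] in endothelial-poor mural cells, 18864 CPM in endothelial-bearing ones and 3457 CPM in all other kept cells. In sorted brain, 30 of the 38 mural cells were endothelial-poor and 8 were endothelial-bearing. No doublet caller was run, and whether more than 1 cell shared a barcode was not tested.

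**Figure D1:**
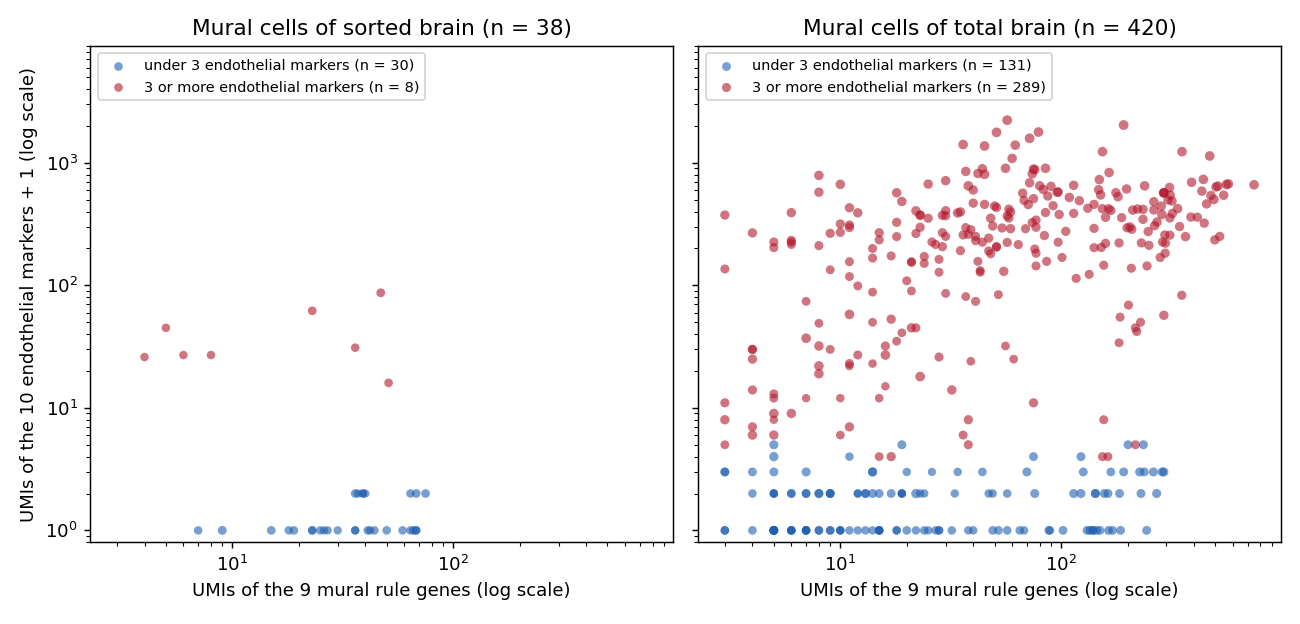
Each point is 1 mural cell of sorted brain (left, 38 cells) or total brain (right, 420 cells). The horizontal axis gives its UMIs of the 9 rule genes and the vertical axis its UMIs of the 10 endothelial markers plus 1, both on log scales. Blue points have under 3 endothelial markers (30 and 131 cells) and red points at least 3 (8 and 289 cells), and in total brain the red points reach the highest counts on both axes.

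Markers of other types were present as well. At least 3 markers of another type were found in 22 of the 38 mural cells of sorted brain and in 350 of the 420 of total brain. Among the 131 endothelial-poor cells, 31 carried at least 3 of 8 neuron markers, 18 at least 3 of 8 microglia markers, 17 at least 3 of 5 erythroid markers, 16 at least 3 of 7 astrocyte markers and 15 at least 3 of 8 fibroblast markers. Summed fibroblast markers stood at 2369 CPM in endothelial-poor mural cells, 631 CPM in endothelial-bearing ones and 280 CPM in the other kept cells, with Dpt at 0 in the endothelial-poor cells. All 6 lymphocyte markers were at 0 in the endothelial-poor cells. Erythroid markers reached 25838 CPM over all mural cells of total brain, between 2457 and 45988 CPM by suffix, against 1136 CPM in the endothelial-poor cells. In sorted brain, 14 of the 38 mural cells had at least 3 microglia markers, which summed to 10069 CPM. The choroid plexus list stood at 10303 CPM there with 5 of its 6 markers at 0, so all of it came from Ttr. The part that RNA of these other types plays in the levels below was not tested, and only some results that involve their genes carry the counts beside them.

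The 9 rule genes chose the cells, so their levels are a description and support nothing. In the 131 endothelial-poor cells of total brain, Vtn, which encodes the secreted adhesion protein vitronectin, stood at 11848 CPM [11499–12204], against 54.7 CPM in endothelial cells (1112 kept cells with at least 3 endothelial markers and under 3 rule genes). The endothelial-bearing mural cells had 1914 CPM, and the mural cells of sorted brain 15270 CPM [14219–16377]. Vtn in endothelial-poor cells lay between 10332 and 13175 CPM over the 4 suffixes, so no suffix set its level alone. Pdgfrb, the PDGF-B receptor, had 1447 CPM in endothelial-poor mural cells, 263 CPM in endothelial-bearing ones and 7.25 CPM in endothelial cells, and 1091 CPM in sorted brain. Notch3 had 681, 173 and 3.88 CPM in the same 3 classes of total brain and 604 CPM in sorted brain. Both receptors thus followed one order, with endothelial-poor mural cells highest and endothelial cells lowest.

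Both potassium channel subunits kept one order of levels over the mural and endothelial classes of total brain. Kcnj8 had 722 CPM [638–814] in endothelial-poor mural cells, 98.3 CPM in endothelial-bearing ones and 0.906 CPM in endothelial cells. Abcc9 had 776 CPM [689–871], 112 CPM and 2.46 CPM in the same classes. In the mural cells of sorted brain, Kcnj8 stood at 1071 CPM and Abcc9 at 740 CPM. The genes are neighbours on the minus strand of chromosome 6 (GRCm38, GENCODE M21), with Kcnj8 from 142564837 to 142571614 and Abcc9 from 142587862 to 142702315, and 16247 bases lie between them. Rgs5, a brake on G protein signalling, behaved otherwise: it had 2926 CPM in endothelial-poor mural cells, 3276 CPM in endothelial-bearing ones and 439 CPM in endothelial cells. Atp13a5, a P-type ATPase gene, had 1236, 200 and 3.11 CPM in these classes, and Higd1b 587, 177 and 2.85 CPM. Myh11, the smooth muscle myosin heavy chain, had 268, 78.7 and 8.02 CPM, and it stood at 19.5 CPM, 1 UMI, in sorted brain.

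Cells just inside the threshold differed from those just outside in depth as well as in marker number. In total brain, 101 cells had 3 of the rule genes, with a median of 6914 UMIs, 10 rule-gene UMIs and 29 endothelial UMIs. The 297 cells with 2 rule genes had medians of 4140, 3 and 3. In sorted brain, 4 cells had 3 rule genes, with medians of 1086 UMIs, 5.5 rule-gene UMIs and 26 endothelial UMIs, and 38 cells had 2, with 3115, 3 and 1. All 9 rule genes were found in 42 cells, all of them in total brain.

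Mural genes that the rule did not use stood above other cells together. Of 24 identity genes, 22 were at least 4-fold higher in mural cells than in the other kept cells of total brain, and none at least 4-fold lower. The exceptions were Zic1 and Mcam. The median log2 ratio of the list was 3.22, against −0.36 over all 18113 genes with at least 10 UMIs over both classes. Of all genes tested, 2.37% were at least 4-fold higher (430 genes) and 6.03% at least 4-fold lower (1093 genes). Log2 ratios add 1 CPM to each level, and genes of the rule are left out of every count against another class. The cells were picked by genes of the same transcriptomes, so counts against other cells describe the class and test nothing.

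Of the 24 identity genes, 23 stood at a higher level in endothelial-poor mural cells than in all mural cells of total brain, and Foxf2 at a lower one, with 83.8 and 124 CPM. Of 13666 genes, 25.5% were at least 2-fold higher in endothelial-poor than in endothelial-bearing mural cells and 15.1% at least 2-fold lower. The division itself sets endothelial RNA aside, so the 23 are a description. Against endothelial cells, 22 of 24 identity genes were at least 4-fold higher in them, with a median log2 ratio of 4.84 against 0.08 over 15234 genes. The background was 3.37% higher (514 genes) and 8.0% lower (1219 genes), with the endothelial markers left out as well. Of the lower genes, 792 had 0 UMIs in endothelial-poor mural cells, and for 737 of these the 3 counts taken as the limit of a count of 0 (8.11 CPM) allow a difference under 4-fold. Ndufa4l2, a mitochondrial subunit-like gene that low oxygen induces, had 598 CPM [521–682] in endothelial-poor mural cells, 201 CPM in endothelial-bearing ones and 6.21 CPM in endothelial cells. Cspg4, the NG2 proteoglycan used to stain pericytes, had 625, 104 and 12.4 CPM. Cox4i2, a cytochrome oxidase subunit, had 341, 90.3 and 4.66 CPM, and Sod3, an extracellular superoxide dismutase, 546, 83.4 and 9.96 CPM. These 4 genes kept one order of levels, endothelial-poor, then endothelial-bearing, then endothelial. The mural cells of sorted brain had 1617 CPM of Ndufa4l2, 351 CPM of Cspg4, 818 CPM of Cox4i2 and 1169 CPM of Sod3. Some identity genes are shared with fibroblasts of the vessel sheath: Anpep, the aminopeptidase CD13, had 122 CPM in endothelial-poor mural cells and 131 CPM in 72 fibroblasts, and the transcription factor gene Tbx18 had 83.8 and 227 CPM.

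**Figure D2:**
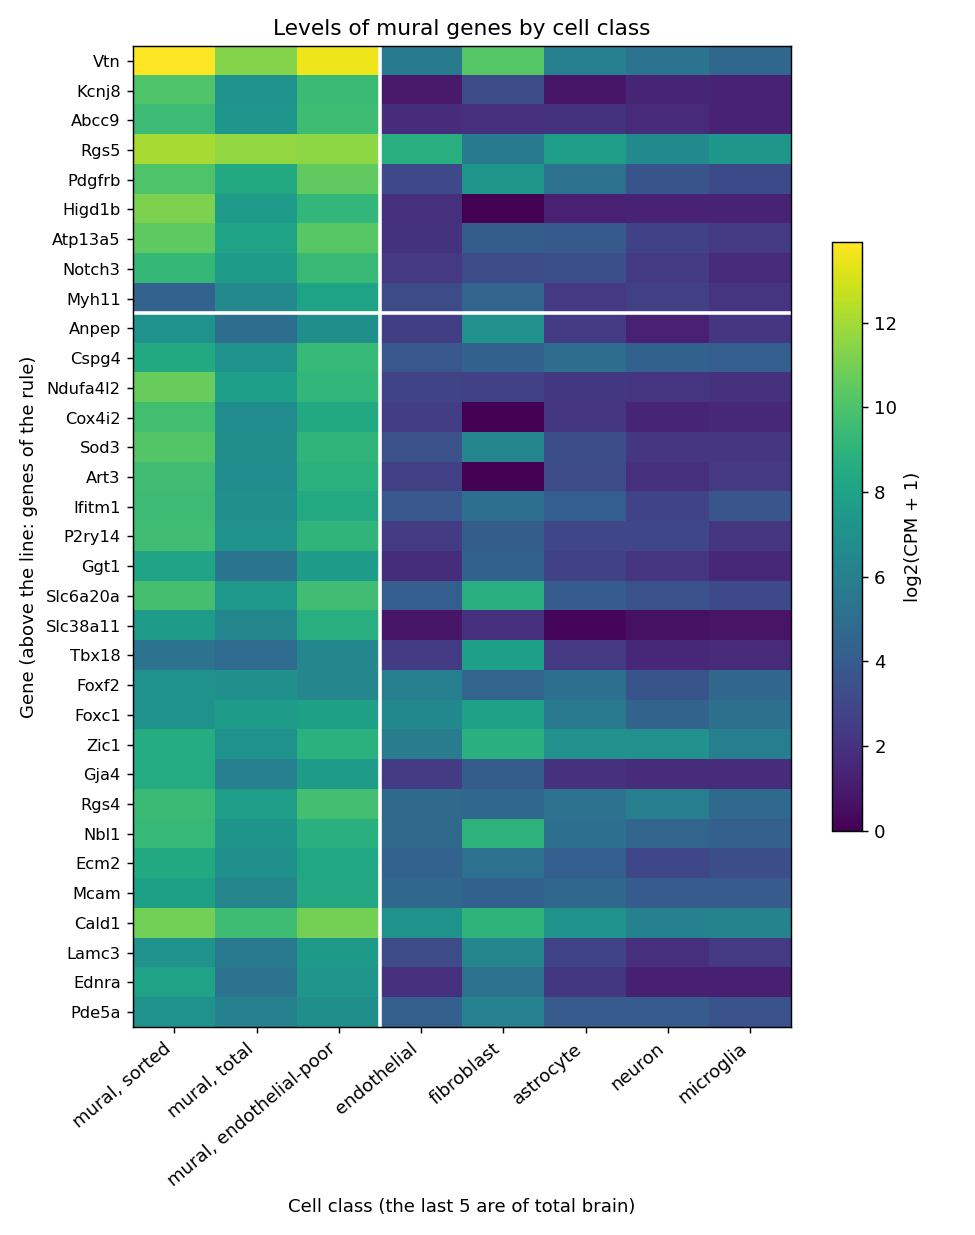
Colour gives log2(CPM + 1) for the 9 rule genes (above the white line) and 24 identity genes (below it) in 3 sets of mural cells (left of the vertical line) and 5 other classes of total brain. The identity genes are brightest in the 3 mural columns, and Anpep and Tbx18 are also bright in fibroblasts.

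Against endothelial cells, all mural cells together differed at few genes: 0.857% of 15875 genes were at least 4-fold higher (136 genes) and 3.06% at least 4-fold lower (486 genes). Against fibroblasts, 7.00% of 13901 genes were at least 4-fold higher (973 genes) and 4.23% at least 4-fold lower (588 genes), and without suffix 3 the higher genes numbered 2001. Of the 973 higher genes, 541 had 0 UMIs in fibroblasts, and for 517 of these a count of 0 allows a difference under 4-fold. There were 278 genes that met the rule for naming, which asked for 50 CPM in mural cells, a 4-fold ratio over other cells and the same direction in every suffix. Of the 25 with the highest log2 ratio, 24 were also at least 4-fold higher than in endothelial cells, and 16 at least 4-fold higher than in fibroblasts. Carmn, Des, Ecm2, Egflam, Gja4, Gper1, Ifitm1, Mylk and S1pr3 missed the second mark, that against fibroblasts. Gkn3 missed the first mark with a log2 ratio of 1.97, and it had 0 UMIs in endothelial-poor mural cells, 174 CPM in endothelial-bearing ones and 40.6 CPM in endothelial cells.

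Among the named genes, Ndufa4l2 was 74.5 times as high in mural cells as in other cells, the amino acid transporter family gene Slc38a11 68.5 times and Cox4i2 54.2 times. Enpep, an aminopeptidase that cleaves angiotensin II, was 67.5 times as high, with 195 CPM in endothelial-poor mural cells, 51.0 CPM in endothelial-bearing ones and 0.776 CPM in endothelial cells. In sorted brain, Enpep stood at 175 CPM. The ratio of levels was 50.5 for Aspn, 42.0 for Tbx3os1, 30.4 for Art3, 29.8 for the smooth muscle non-coding RNA gene Carmn, 27.3 for the myosin light chain gene Myl9 and 26.0 for the T-box factor gene Tbx2. For P2ry14, Gper1, Ifitm1, Gja4, Ano1, Casq2, Des, Egflam, Acta2, S1pr3, Tagln, Mylk, Ecm2 and Gkn3 it lay between 24.6 and 13.2. Against endothelial cells, endothelial-poor mural cells had 550 times the level of Slc38a11, 255 times that of Carmn and 251 times that of Enpep. These ratios are given without intervals, and the 0.776 CPM of Enpep in endothelial cells rests on few UMIs.

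Many genes for responses to agents that open or close vessels stood higher in endothelial-poor mural than in endothelial cells. Of 22 vasoactive genes tested, 15 were at least 4-fold higher in endothelial-poor mural than in endothelial cells and none at least 4-fold lower, with a median log2 ratio of 2.80. The shares over all genes were 3.37% higher and 8.0% lower. Over all mural cells against other cells, 9 of 25 were at least 4-fold higher, beside 2.37% of all genes. Ednra, the endothelin receptor that constricts, had 154 CPM in endothelial-poor mural cells, 30.4 CPM in endothelial-bearing ones and 2.85 CPM in endothelial cells. Gucy1a1 and Gucy1b1, the subunits of the guanylate cyclase that senses nitric oxide, had 195 and 357 CPM in endothelial-poor mural cells, 60.5 and 95.7 CPM in endothelial-bearing ones, and 13.2 and 12.4 CPM in endothelial cells. The UDP-glucose receptor gene P2ry14 had 544, 108 and 4.27 CPM, the oestrogen-binding receptor gene Gper1 260, 60.9 and 6.47 CPM, and the thrombin receptor gene F2r 73.0, 16.0 and 2.07 CPM. In the mural cells of sorted brain, Ednra stood at 253 CPM, Gucy1b1 at 409 CPM, P2ry14 at 799 CPM and Gper1 at 370 CPM, while F2r had 0 UMIs, which allows up to 58.4 CPM.

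Channels and pumps showed the same order. Of 19 genes tested, 9 were at least 4-fold higher in endothelial-poor mural than in endothelial cells, among them Kcnmb1, Cacna1c, Ano1, Gja4, Gjc1, Pln and Atp1b2, and none was at least 4-fold lower. The median log2 ratio was 1.82, and 3.37% of all genes were higher and 8.0% lower. Ano1, a calcium-gated chloride channel that depolarises mural cells, had 287 CPM in endothelial-poor mural cells, 58.6 CPM in endothelial-bearing ones and 2.33 CPM in endothelial cells. Gjc1, connexin 45 of mural gap junctions, had 441, 189 and 71.6 CPM. Astrocytes also express some genes of this list, and the 7 astrocyte markers summed to 1625 CPM in endothelial-poor mural cells against 1010 CPM in all other kept cells. Over all mural cells against other cells, the calls were 3 higher (Ano1, Gja4 and Gjc1) and 2 lower (Kcnma1 and Ryr2) of 19, beside 2.37% and 6.03% of all genes.

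Solute carriers differed in both directions between endothelial-poor mural and endothelial cells. In endothelial-poor mural against endothelial cells, 6 of 17 transport genes were at least 4-fold higher (Slc6a20a, Slc6a13, Slc1a3, Slc19a1, Slc38a11 and Slc30a10) and 5 at least 4-fold lower (Slc7a1, Slc16a1, Abcb1a, Abcg2 and Mfsd2a). Among all genes, 3.37% were higher and 8.0% lower. The 5 lower genes are transporters of the blood-brain barrier endothelium. Their low levels follow from the choice of cells with few endothelial markers, among them Slco1a4 and Slc2a1, and are a description. Slc6a20a, which carries proline, had 809 CPM in endothelial-poor mural cells, 126 CPM in endothelial-bearing ones and 16.6 CPM in endothelial cells. The folate carrier gene Slc19a1 had 403, 70.1 and 10.5 CPM, and the manganese exporter gene Slc30a10 230, 37.2 and 9.19 CPM. Slc1a3 is also an astrocyte marker. Slc6a13, a GABA and taurine transporter found in meningeal fibroblasts too, had 265, 34.0 and 13.8 CPM.

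The basement membrane that mural cells share with the endothelium was also represented. Of 19 genes tested, 8 were at least 4-fold higher in endothelial-poor mural than in endothelial cells (Col4a5, Lama2, Lama4, Lamb1, Lamc1, Lamc3, Nid1 and Bgn) and Fn1 was at least 4-fold lower. Among all genes, 3.37% were higher and 8.0% lower. Lamc1, the laminin chain common to most laminins, had 441 CPM in endothelial-poor mural cells, 130 CPM in endothelial-bearing ones and 45.9 CPM in endothelial cells. Nid1, which links laminin to collagen IV, had 327, 96.4 and 27.2 CPM, and the proteoglycan gene Bgn 487, 93.6 and 33.6 CPM. Fn1, fibronectin, ran the other way with 59.5, 726 and 431 CPM. Fibroblasts also make basement membrane proteins, and some endothelial-poor mural cells carried fibroblast markers. The part of fibroblast RNA in these levels was not tested. Over all mural cells against other cells, 9 of 19 were at least 4-fold higher and none lower, beside 2.37% and 6.03% of all genes.

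Endothelial-poor cells were chosen for few endothelial markers, so low levels of endothelial genes in them follow from the choice and are a description. Among genes of the PDGF, angiopoietin and VEGF axes in endothelial-poor mural against endothelial cells, 3 of 17 were at least 4-fold higher (Pdgfra, Vegfa and S1pr3) and 7 at least 4-fold lower (Pdgfb, Pdgfd, Tek, Tie1, Vegfc, Kdr and S1pr1), with a median of −0.18. Pdgfra was also used here as a marker of oligodendrocyte precursors. Vegfc had 0 UMIs in the endothelial-poor cells, so it was at least 2.09-fold lower and the 4-fold mark is no bound for it. Pdgfb, the ligand of Pdgfrb, had 8.11 CPM in endothelial-poor mural cells, which is 3 UMIs, against 298 CPM in endothelial-bearing ones and 192 CPM in endothelial cells. The angiopoietin receptor gene Tek had 5.41, 332 and 184 CPM, and Kdr, the main VEGF receptor, 2.70, 370 and 227 CPM. Vegfa had 249, 39.1 and 53.4 CPM, and the sphingosine phosphate receptor gene S1pr3 257, 45.1 and 5.05 CPM. Of 25 TGF-beta and BMP genes, 2 were at least 4-fold higher (Tgfb3 and Bmp4) and 4 at least 4-fold lower (Acvrl1, Smad6, Id1 and Id3). Of 13 genes of oxygen metabolism, 4 were higher and 2 lower, and of 13 genes of inherited vessel disease, 1 was higher and 2 were lower. All counts of this paragraph stand beside 3.37% of all genes higher and 8.0% lower. Where only a few genes of a list were called, the count is not read as a result about the list.

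Notch signalling genes differed less from endothelial cells. Of 17 genes tested without Notch3, 4 were at least 4-fold higher in endothelial-poor mural than in endothelial cells (Hey2, Heyl, Nrarp and Nrip2) and none at least 4-fold lower, with a median log2 ratio of 0.61. The shares over all genes were 3.37% and 8.0%. Heyl, a transcriptional repressor that Notch switches on, had 154 CPM [117–200] in endothelial-poor mural cells, 39.0 CPM in endothelial-bearing ones and 3.24 CPM in endothelial cells. Its relative Hey2 had 81.1 CPM [54.7–116], 25.8 CPM and 7.25 CPM. Nrarp, a feedback inhibitor of Notch, had 62.2, 33.0 and 10.4 CPM. The receptor gene Notch1 (306, 253 and 125 CPM) and the ligand gene Jag1 (135, 92.2 and 40.6 CPM) differed less between the classes. In sorted mural cells, Heyl stood at 253 CPM, Notch1 at 234 CPM and Hey2 at 0 UMIs.

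Among mural cells of total brain, smooth muscle was separated from pericytes by any UMI of Acta2, smooth muscle actin, or Myh11. A smooth muscle cell with a Myh11 UMI thus needed 2 further rule genes to be a member, and a pericyte 3. By this rule 146 of 420 mural cells (34.8% [30.2–39.5]) were smooth muscle and 274 were pericytes, with a median of 12681.5 and 7333.5 UMIs. In sorted brain, 2 of 38 were smooth muscle and 36 were pericytes. The split leans on few molecules: 54 of the 146 smooth muscle cells had 1 such UMI, 21 had 2, 71 had at least 3, and 23 had at least 10, up to 343 in 1 cell. With each cell thinned to 1000 UMIs, 45 of 393 mural cells (11.5% [8.48–15.0]) had a UMI of either gene, and the share was 2.32% in endothelial cells and 1.12% in neurons, which should lack both genes. Unthinned, Acta2 UMIs were found in 74 of the 420 mural cells and in 95 of 5601 neurons, whose median depth was 1688 UMIs. The endothelial-poor cells divided into 39 smooth muscle cells and 92 pericytes with closer medians of 1776 and 2005 UMIs, and both sets are described below.

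Contractile genes that did not make the split followed it. Of 19 tested, 13 were at least 2-fold higher in smooth muscle than in pericytes and none at least 2-fold lower, with a median log2 ratio of 1.56 against −0.08 over 13683 genes. The background was 3.16% higher (433 genes) and 2.73% lower (374 genes), and without suffix 2 the lower genes numbered 900. In endothelial-poor cells alone, 11 of 14 were at least 2-fold higher and 1, Srf, at least 2-fold lower, with a median of 1.73. The background there was wider, at 10.5% higher (810 genes) and 11.2% lower (862 genes) of 7688 genes, with a median of 0.01. Of the 862 lower genes, 68 had 0 UMIs in endothelial-poor smooth muscle cells, and for 45 of these a count of 0 allows a difference under 2-fold. The contractile list summed to 9731 CPM in endothelial-poor smooth muscle cells and 4319 CPM in endothelial-poor pericytes.

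Tagln, the actin-binding protein transgelin, had 896 CPM [732–1086] in endothelial-poor smooth muscle cells and 19.7 CPM in endothelial-poor pericytes, and 485 CPM in the smooth muscle cells without the cell that held most of its UMIs. Flna, the actin cross-linker filamin A, had 1258 CPM [1063–1480] and 217 CPM [163–282], with UMIs in 31 of 39 and 39 of 92 cells. In neurons, Flna UMIs were found in 1270 of 5601 cells at 123 CPM. Flna in endothelial-poor smooth muscle cells stood at 464, 346, 1552 and 2166 CPM in suffixes 1 to 4, and in endothelial-poor pericytes at 43.7, 250, 241 and 273 CPM. It was thus higher in smooth muscle in all 4 suffixes. Myl9, the regulatory myosin light chain, had 948 and 567 CPM in endothelial-poor smooth muscle cells and pericytes, and Mylk, the kinase that activates it, 827 and 280 CPM. The tropomyosin genes Tpm1 and Tpm2 had 776 and 560 CPM in smooth muscle cells, against 213 and 63.1 CPM in pericytes. Without the cell with the most Tpm2 UMIs, Tpm2 stood at 247 CPM. Cald1, caldesmon, differed little with 1870 and 2132 CPM, and Srf, the transcription factor of contractile genes, had 17.2 CPM, 2 UMIs, and 59.1 CPM. Acta2, which made the split, had 1586 CPM [1365–1832] in endothelial-poor smooth muscle cells, with 77 of its 184 UMIs in 1 cell, and 943 CPM without that cell.

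**Figure D3:**
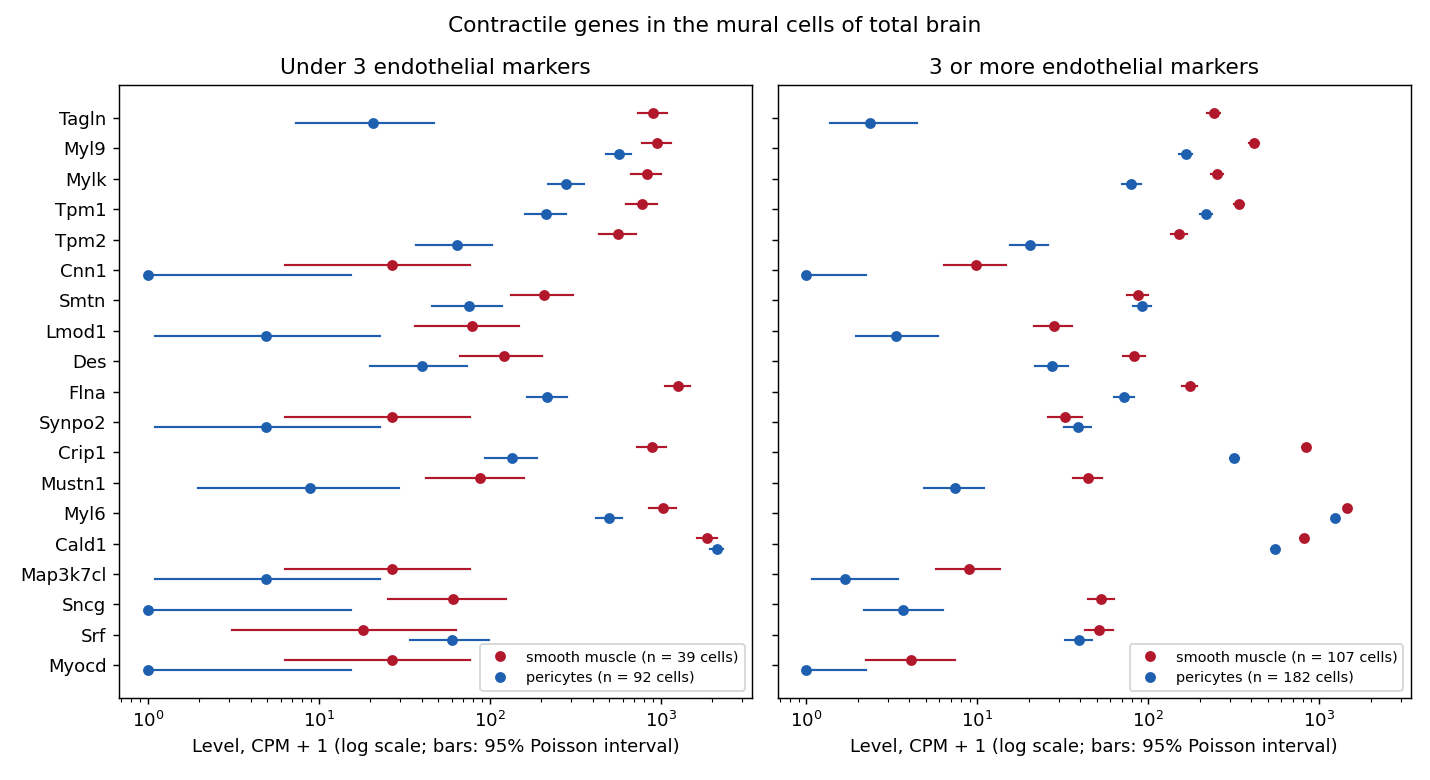
Points give the level of 19 contractile genes as CPM + 1 on a log scale, with 95% Poisson intervals as bars, in smooth muscle cells (red) and pericytes (blue) of total brain. The left panel holds the endothelial-poor cells (39 and 92) and the right panel the endothelial-bearing cells (107 and 182), and Tagln is among the genes whose points lie far apart in both panels.

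Promoter sequences are shown for 2 contractile genes and for the mural Notch target with a match, Hey2. Flna was higher in smooth muscle in the endothelial-poor cells too, while Myl9, among the 25 named mural genes, missed 2-fold there. They come from RefSeq (GRCm38.p6) and run 5′ to 3′ on the strand of the gene, from 250 bases before the RefSeq start up to the base before the first GENCODE M21 exon. Capitals mark the letters of a motif found by search on both strands. In Flna (chrX:74246556-74246784, minus strand) they mark the MCAT element CATTCC, known for binding TEAD factors, 146 to 141 bases before the start. In Myl9 (chr2:156775214-156775419, plus strand) they mark a CArG box, the site known for binding Srf, 161 to 152 bases before the start. In Hey2 (chr10:30842802-30843033, minus strand) they mark TTCCCAC, 207 to 201 bases before the start, and an MCAT match overlaps it by 4 bases. TTCCCAC is the reverse complement of GTGGGAA, the RBPJ element of Notch targets.
Flna: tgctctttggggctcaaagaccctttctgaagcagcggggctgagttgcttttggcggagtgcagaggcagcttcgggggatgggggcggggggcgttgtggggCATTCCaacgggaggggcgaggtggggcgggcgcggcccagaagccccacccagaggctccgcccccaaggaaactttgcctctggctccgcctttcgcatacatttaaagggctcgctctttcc
Myl9: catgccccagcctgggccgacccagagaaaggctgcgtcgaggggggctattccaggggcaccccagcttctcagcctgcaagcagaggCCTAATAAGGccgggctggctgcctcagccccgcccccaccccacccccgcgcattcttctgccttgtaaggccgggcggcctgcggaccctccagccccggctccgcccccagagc
Hey2: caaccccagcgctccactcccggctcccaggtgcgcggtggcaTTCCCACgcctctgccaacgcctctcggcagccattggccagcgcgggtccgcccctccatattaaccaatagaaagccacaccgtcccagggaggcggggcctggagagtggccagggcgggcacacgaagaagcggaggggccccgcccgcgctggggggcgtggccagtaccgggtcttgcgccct

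Over the 250 bases before the start, MCAT (CATTCC or GGAATG) was found in 7 of 19 promoters of 17 contractile genes (Acta2, Cald1, Flna, Lmod1, Mylk, Smtn and Tpm1), against 12.6% of 32851 promoters. It was not particular to them: 3 of 6 promoters of rule genes (Abcc9, Atp13a5 and Vtn) and 4 of 17 of Notch genes (Hey2, Notch1, Notch4 and Rbpj) held it too. CArG was found in 3 of 19 contractile promoters (Myl6, Myl9 and Srf), 0 of 6 of rule genes and 1 of 17 of Notch genes (Hes5), against 1.47% of all promoters. The RBPJ letters were found in 3 of 17 promoters of 14 Notch genes (Hes5, Hey2 and Lfng), 0 of 19 of contractile genes and 0 of 6 of rule genes, against 5.42%. A match describes these letters and is not a site, and a promoter without a match says nothing of the factor.

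The 12 genes named for the highest ratios of smooth muscle over pericytes were Tagln, Sncg, Tpm2, Bmx, Gkn3, Ptgds, Rasl11a, Igfbp3, Ntn4, Vegfc, Pde3a and Egfl8, out of 67 that met the rule. Of the 8 with a UMI in endothelial-poor cells, 5 were at least 2-fold higher there too, namely Ntn4, Pde3a, Rasl11a, Tagln and Tpm2. Sncg had 7 UMIs in 4 of 39 endothelial-poor smooth muscle cells and 0 in the pericytes, too few to be tested. Pde3a, a cyclic nucleotide phosphodiesterase, had 267 CPM in endothelial-poor smooth muscle cells and 59.1 CPM in endothelial-poor pericytes. Ntn4, a netrin of basement membranes, had 215 and 43.3 CPM, and the Ras-like gene Rasl11a 164 and 67.0 CPM. Bmx, Igfbp3 and Vegfc had 60.8, 65.5 and 83.5 CPM in all smooth muscle cells and 8.38, 12.4 and 16.4 CPM in all pericytes, but 0 UMIs in the endothelial-poor cells of either kind. Bmx is a kinase gene and Vegfc a growth factor gene known in arterial endothelium. Egfl8 turned the other way in endothelial-poor cells, with 1 UMI in smooth muscle cells and 7 in pericytes. Ptgds, which leptomeningeal cells express strongly, reversed as well: it had 1619 and 285 CPM over all cells but 629 and 1348 CPM in endothelial-poor smooth muscle cells and pericytes.

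For genes higher in pericytes, the rule named Cpne7, Ndnf, Siglech, Vegfa, Hmcn1, Ddc, Slc16a1, Ccdc85a, Proser2, Gpr34, Fam13a and Dclk1 out of 17, and 5 of these (Cpne7, Ndnf, Vegfa, Gpr34 and Dclk1) were also at least 2-fold lower in endothelial-poor smooth muscle cells. On few UMIs each, 5 others changed direction there, with log2 ratios of 0.51 for Hmcn1, 4.75 for Ddc, 0.38 for Ccdc85a, 1.04 for Proser2 and 2.44 for Fam13a. Ndnf, a secreted fibronectin-domain protein, had 8.62 CPM in endothelial-poor smooth muscle cells and 90.6 CPM in endothelial-poor pericytes. Vegfa had 103 and 315 CPM and Cpne7 17.2 and 74.9 CPM. Siglech and Gpr34 are microglial genes, and their levels in endothelial-poor cells were 25.9 and 34.5 CPM in smooth muscle cells and 39.4 and 118 CPM in pericytes. Microglia markers summed to 1327 CPM in endothelial-poor smooth muscle cells and 2045 CPM in endothelial-poor pericytes.

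Within endothelial-poor cells, basement membrane genes stood higher in pericytes: 10 of 20 genes were at least 2-fold lower in smooth muscle cells than in pericytes, and 2 (Lama5 and Fn1) at least 2-fold higher, with a median log2 ratio of −0.96. Of all genes, 11.2% were lower and 10.5% higher. Vtn, among the 10 lower genes, had 6654 CPM in smooth muscle cells and 14222 CPM in pericytes. It belongs to the rule that chose the cells, so its difference is a description only. Lamc1 had 198 CPM in smooth muscle cells and 552 CPM in pericytes, Nid1 155 and 406 CPM, and Col4a1, a collagen IV chain, 293 and 674 CPM. Lama5, a laminin chain of arterial walls, had 112 CPM and 3.94 CPM, 1 UMI. Over all mural cells, 2 of 20 basement membrane genes were at least 2-fold higher in smooth muscle and none lower, beside 3.16% and 2.73% of all genes. Fibroblasts also make these proteins, and at least 3 fibroblast markers were found in 1 of 39 endothelial-poor smooth muscle cells and 14 of 92 pericytes. The fibroblast gene Dcn, decorin, had 0 UMIs in the smooth muscle cells and 207 UMIs in 13 of the pericytes, 84 of them in 1 cell.

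Counts of channel and Notch genes are read beside the 10.5% of all genes that were at least 2-fold higher and the 11.2% at least 2-fold lower in endothelial-poor smooth muscle cells than in pericytes. Of 18 channel genes, 1 was higher and 3 were lower, and of 14 Notch genes, 2 were higher and 1 was lower. Abcc9 had 448 CPM in endothelial-poor smooth muscle cells and 926 CPM in pericytes and Atp13a5 724 and 1470 CPM, and they were among the 3 lower channel genes. Abcc9 and Atp13a5 belong to the rule that chose the cells, so their difference is a description only. Kcnj8, the partner of Abcc9, had 646 and 757 CPM. Gja4, connexin 37, was the higher gene of the list, with 336 and 142 CPM. Pln, the brake on the calcium pump of muscle, had 5 UMIs in smooth muscle cells and 0 in pericytes, too few to be counted. Among Notch genes, Jag1 (233 and 90.6 CPM) and Nrip2 (103 and 11.8 CPM) were at least 2-fold higher in endothelial-poor smooth muscle cells, and Notch2 was at least 2-fold lower.

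Immediate early genes, which stimulation and tissue dissociation induce within minutes, differed in level between endothelial-poor smooth muscle cells and pericytes. Of 17 genes, 15 were at least 2-fold higher in smooth muscle cells than in pericytes and none lower, with Jund and Ier3 as the exceptions and a median log2 ratio of 2.40. Of all genes, 10.5% were at least 2-fold higher and 11.2% at least 2-fold lower. The list summed to 7171 CPM [6692–7676] in smooth muscle cells and 1501 CPM [1354–1660] in pericytes. Over all mural cells none of the 17 passed 2-fold in either direction, with a median of 0.08. Fosb, an AP-1 factor, had 1095 CPM [913–1302] in endothelial-poor smooth muscle cells, from UMIs in 12 of 39 cells, and 3.94 CPM in pericytes, from 1 of 92 cells. In neurons 370 of 5601 cells had a Fosb UMI. By suffix, Fosb stood at 773, 38.5, 1478 and 1699 CPM in the smooth muscle cells and at 0, 0, 0 and 11.9 CPM in the pericytes. Suffix 2, with 5 smooth muscle cells, had 1 UMI. Jun, Dusp1, Klf2, Klf4 and Cyr61 each stood at 0 CPM in at least 1 suffix of these smooth muscle cells. Fos had 879 and 55.2 CPM, Egr1 871 and 74.9 CPM and Nr4a1 491 and 35.5 CPM. These values rest on 39 cells of 1 sample, 13 of them called smooth muscle by 1 UMI, and the part of dissociation was not tested. Some endothelial-poor mural cells also carried neuron markers, and the part of neuron RNA was not tested either.

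Interferon response and class I presentation genes, each summed over its list, stood higher in endothelial-bearing than in endothelial-poor mural cells. Over all mural cells, 7 of 24 interferon response genes were at least 4-fold higher than in other cells and none lower, beside 2.37% and 6.03% of all genes. In endothelial-poor mural against endothelial cells, 1 (Ifitm1) was at least 4-fold higher and 7 at least 4-fold lower (Isg15, Ifit1, Ifit3, Usp18, Rsad2, Gbp2 and Psmb8), with a median log2 ratio of −1.29. Among all genes, 3.37% were higher and 8.0% lower there. Usp18 had 0 UMIs in the endothelial-poor cells, so it was at least 3.13-fold lower and the 4-fold mark is no bound for it. The list summed to 1644 CPM [1516–1780] in endothelial-poor mural cells, 3803 CPM in endothelial-bearing ones, 2569 CPM in endothelial cells and 1509 CPM in all other kept cells. Ifit1 had 5.41, 134 and 85.7 CPM in the first 3 of these classes, while Ifitm1, a membrane protein that blocks virus entry, had 357, 109 and 12.4 CPM. The 5.41 CPM of Ifit1 lies under the 8.11 CPM of 3 counts. Class I presentation genes summed to 1406 CPM in endothelial-poor mural cells, 3852 CPM in endothelial-bearing ones, 2645 CPM in endothelial cells and 1853 CPM in other cells. B2m, H2-D1, H2-K1, H2-Q4, H2-T23 and Tapbp were at least 2-fold lower in endothelial-poor than in endothelial-bearing mural cells, beside 15.1% of all genes. Calr, Tap2 and Pdia3 were not, with 0.903, 0.850 and 0.789 times the level.

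Immediate early and cell cycle arrest genes were also higher in endothelial-bearing than in endothelial-poor mural cells, and in these lists the endothelial-poor cells lay below the other kept cells too. The immediate early list summed to 3280 CPM [3098–3470] in endothelial-poor mural cells, 14295 CPM in endothelial-bearing ones, 9537 CPM in endothelial cells and 5882 CPM in other cells. Klf2, a factor that blood flow induces in endothelium, had 75.7, 2230 and 1200 CPM in the 3 vessel classes. Cdkn1a, the cell cycle inhibitor p21, had 27.0, 666 and 375 CPM, and the arrest list summed to 476, 1485 and 1050 CPM, against 663 CPM in other cells. Of 16 cytokine and adhesion genes, 2 were at least 4-fold higher in endothelial-poor mural than in endothelial cells (Ccl11 and Il34) and 4 at least 4-fold lower (Ccl7, Cxcl12, Ptgs2 and Icam1). The shares over all genes were 3.37% and 8.0%. Il34, a ligand of the microglial receptor Csf1r, had 176, 32.1 and 7.51 CPM, and the chemokine gene Cxcl12 181, 1416 and 1272 CPM.

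**Figure D4:**
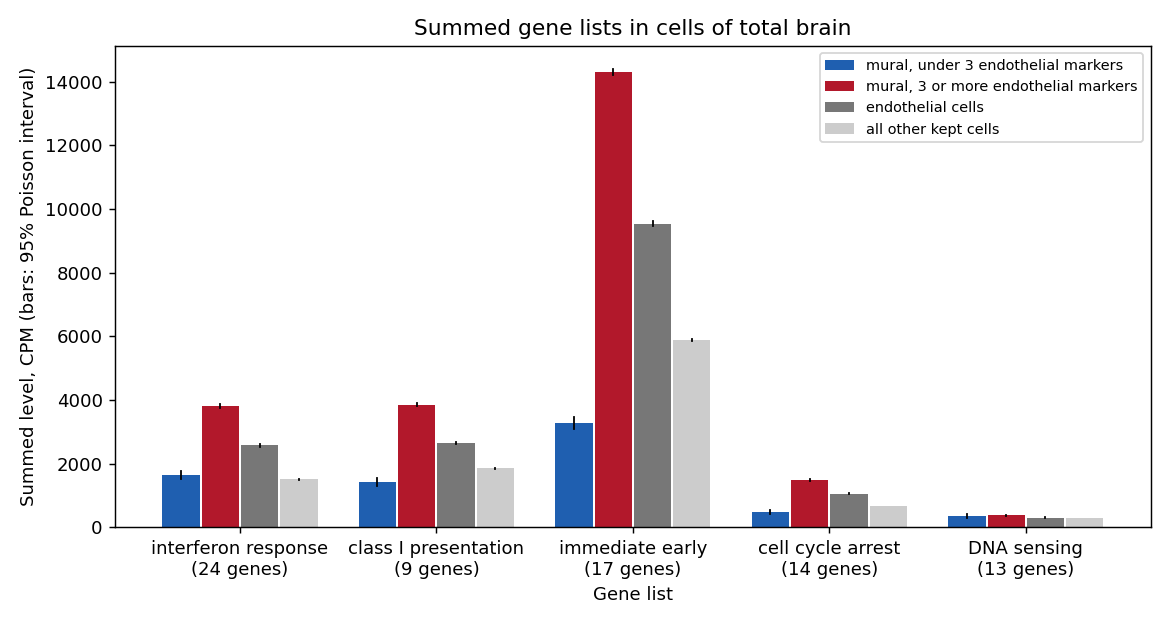
Bars give the summed level in CPM, with 95% Poisson intervals, of 5 gene lists in endothelial-poor mural cells (blue), endothelial-bearing mural cells (red), endothelial cells (dark grey) and all other kept cells (light grey) of total brain. For 4 lists the endothelial-bearing cells are highest and the endothelial-poor cells lie below endothelial cells, while the DNA sensing list stands between 294 and 372 CPM in all 4 classes.

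Genes of cytosolic DNA sensing, the pathway of the knocked-out gene, had close sums in the classes, while single members differed. Of 12 tested, none was at least 4-fold higher or lower in mural cells than in other cells, with a median log2 ratio of 0.04. Of all genes, 2.37% were higher and 6.03% lower. The list summed to 349 CPM [291–415] in endothelial-poor mural cells, 372 CPM in endothelial-bearing ones, 296 CPM in endothelial cells and 294 CPM in other cells. Tmem173, which encodes STING, had 3 UMIs in the 131 endothelial-poor cells, 8.11 CPM, against 8.02 CPM in endothelial-bearing mural cells, 11.5 CPM in endothelial cells and 18.2 CPM in all other kept cells. In neurons it stood at 7.55 CPM. By suffix, the mural cells of total brain held 5, 12, 23 and 5 UMIs of Tmem173, and all 4 such UMIs of sorted brain fell in suffix 4. These counts are no check of genotype, because the genotype behind a suffix is unknown here. Irf3, the transcription factor that STING signalling activates, had 94.6 CPM in endothelial-poor mural cells, 54.4 CPM in endothelial-bearing ones and 44.8 CPM in endothelial cells, and the kinase gene Tbk1 54.1, 36.3 and 39.1 CPM. Irf7, an interferon-induced transcription factor, had 10.8 CPM, 4 UMIs, in endothelial-poor mural cells, 68.5 CPM in endothelial-bearing ones and 41.0 CPM in endothelial cells. Samhd1, a nuclease and dNTP hydrolase, had 48.7 CPM [28.8–76.9], 127 CPM and 85.9 CPM. Zbp1, an innate immune sensor of nucleic acid, had 0 UMIs in endothelial-poor mural cells, which allows up to 8.11 CPM, and 4.14 CPM in endothelial cells, so no difference was detectable. Trex1, a DNA exonuclease gene, was at 0 UMIs in every class.

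Shares of mural cells were compared by barcode suffix as a description. In sorted brain they were 0.127% [0.0345–0.324], 0.421% [0.202–0.773], 0.393% [0.17–0.774] and 0.638% [0.365–1.03] of kept cells in suffixes 1 to 4, from 4, 10, 8 and 16 cells. The intervals of suffixes 1 and 4 of sorted brain do not overlap. In total brain they were 5.04% [3.82–6.51], 3.46% [2.59–4.53], 4.47% [3.82–5.20] and 4.78% [4.06–5.58]. The intervals of all 4 suffixes of total brain overlap. Endothelial-poor mural cells were 1.83%, 1.15%, 1.34% and 1.42% of kept cells of total brain, and endothelial-bearing ones 3.21%, 2.31%, 3.13% and 3.36%. With 38 mural cells in sorted brain, fewer than the 50 set as a minimum for a comparison, no ratio between the samples was computed.

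**Figure D5:**
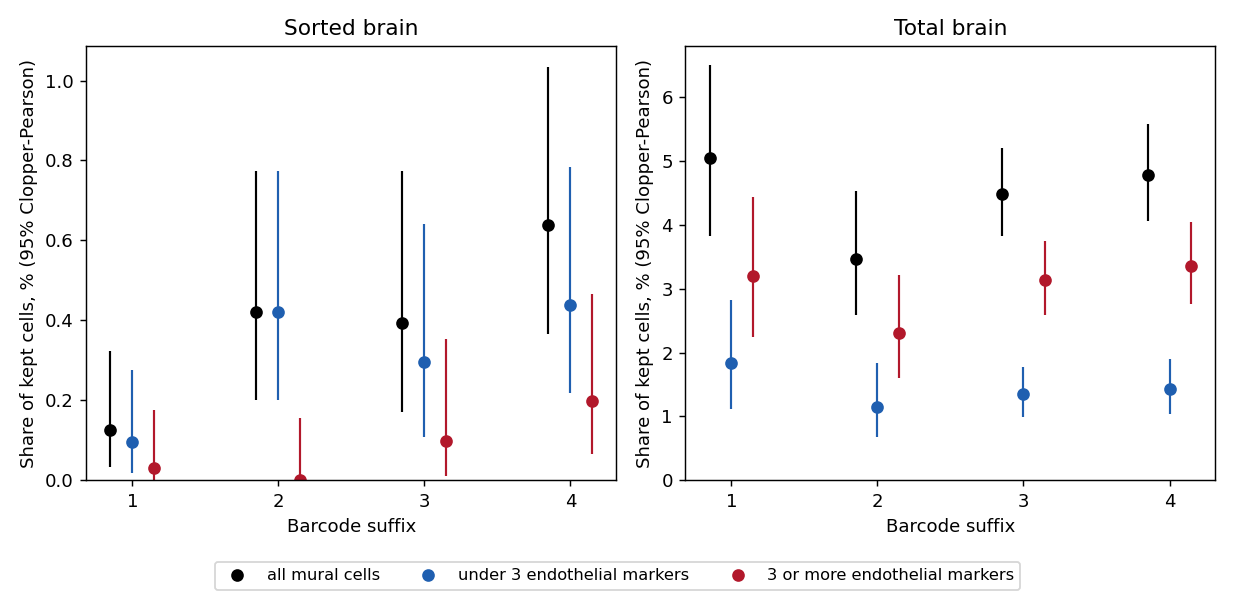
Points give mural cells as a percentage of kept cells in barcode suffixes 1 to 4 of sorted brain (left) and total brain (right), with 95% Clopper-Pearson intervals, for all mural cells (black), endothelial-poor (blue) and endothelial-bearing cells (red). The vertical scales differ, with shares of all mural cells between 0.127% and 0.638% in sorted brain and between 3.46% and 5.04% in total brain.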

How the data were processed

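Single-cell 3′ RNA counts were measured in 2 samples of mouse brain. The deposited matrices hold whole-number UMI counts per gene and barcode for 31053 genes, made by the authors with Cell Ranger 3.0.2 (sorted brain) and 3.1.0 (total brain) per the file headers, while the submitters' processing notes give 3.0.2 for both, with mm10. The sources used here do not name the annotation release. A barcode was kept as a cell if it had 500 genes or more and no more than 10% mitochondrial UMIs. The matrices held 0 columns of other samples.

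UMIs were summed over the cells of a class and scaled to 1000000, with no count model, since each group is 1 sample. Other types were kept cells with at least 3 of that type's markers and under 3 rule genes. A gene entered a comparison, and is written as tested, with at least 10 UMIs over both classes, and was called by size alone at 4-fold, or 2-fold between smooth muscle and pericytes. Rule genes were left out of counts against other classes, and Acta2 and Myh11 out of those within mural cells. To be named, a gene needed at least 50 CPM, a ratio past the fold and the same direction in every suffix with at least 20 cells, leaving out markers of other types and predicted genes, the top 25 against other cells and the top 12 each way within mural cells. The members, the 17 gene lists and the markers were chosen with earlier results of these data known. Gene IDs matched GENCODE M21 for 30934 of 31053, and all 403 named or listed genes were found. Values of 3 of these genes are not reported here, though the counts include them.

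Against other cells the median log2 ratio of all genes was −0.36, and TMM scaling (edgeR 4.0.16) multiplied the other cells' levels by a log2 factor of −0.35. Alternatives were cell filters, other numbers of rule genes, leaving out each suffix or cells with another type's markers, equal weight per cell, TMM, other pseudocounts and UMI minimums, and thinning to 1000 UMIs. The calculation was tested on simulated data with 100 genes changed 2-fold and 100 changed 4-fold of 31053: 100% lay within 0.5 log2 for mural over other cells and for smooth muscle over pericytes, and 79% and 84% for the endothelial-poor smooth muscle comparison. Software was Python 3.11.15, numpy 2.4.6, scipy 1.17.1, pandas 2.3.3 and matplotlib 3.10.9.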

Additional observations from a re-analysis of the deposited data

Results flagged for a closer look

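Mural RNA was also found in barcodes that the cell filter removed, which enter no comparison. Of the 3423 removed barcodes of sorted brain, 32 held a UMI of at least 3 rule genes, and 31 of these had under 500 genes. Of the 5307 removed barcodes of total brain, 317 did so, 279 with over 10% mitochondrial UMIs and 67 with under 500 genes. The mitochondrial limit was exceeded by 8 of the 32 barcodes of sorted brain. For comparison, 38 and 420 mural cells were kept in sorted and total brain.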

How the results depend on the processing

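No paired analysis was possible because each group is 1 sample and the result comes from no test. Counts of genes below are first those higher and then those lower in mural than in other, endothelial or fibroblast cells at 4-fold, or in smooth muscle than in pericytes at 2-fold, and log2 values are of smooth muscle over pericytes unless another pair is named. The cause of each difference was not tested.

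With 200 genes and 20% mitochondrial UMIs, mural cells were 0.540% of sorted and 5.12% of total brain, and smooth muscle 30.1% of mural cells. With 1000 genes and 5%, the shares were 0.183%, 2.16% and 45.2%, the counts 279 and 296 against other cells, 258 lower against endothelial cells, 1626 and 345 against fibroblasts, and 1461 and 1919 between smooth muscle and pericytes. Hmcn1 (0.61), Ddc (1.18), Slc16a1 (0.15) and Proser2 (1.83) then changed direction. With 4 rule genes the share of total brain was 3.41% and 629 genes were higher than in fibroblasts. With 2 rule genes, the shares were 0.754% and 7.65%. Without members that held markers of another type, the shares were 0.159% and 0.747%, with counts of 811 and 4094 against other cells, 639 and 3524 against endothelial cells and 380 higher than in fibroblasts. Gkn3 (−3.73, against other cells), Ccdc85a (5.74), Proser2 (4.76), Gpr34 (1.29) and Fam13a (4.76) changed direction.

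Each cell scaled to the same total gave 231 and 184 against endothelial cells and 905 and 987 between smooth muscle and pericytes. TMM gave 543 genes lower than in other cells. A pseudocount of 10 CPM gave 181 and 179, 49 and 74, 257 and 298, and 135 and 19 in the order other, endothelial, fibroblast and smooth muscle. No minimum of UMIs gave 654 and 585 for smooth muscle, and a minimum of 50 gave 203 and 130, with 586 and 314 against fibroblasts. Smooth muscle called at 3 UMIs was 20.6% of mural cells, with 817 genes lower. Thinned to 1000 UMIs it was 11.5%, with 877 and 1658, and Fam13a at 0.61.

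Chosen after seeing the data, the endothelial-poor cells alone were 1.40% of total brain with a smooth muscle share of 29.8%, counts of 514 and 1219 against endothelial cells, and 811 and 865 within mural cells when the endothelial markers are counted. Gkn3 (−3.73, against other cells), Ptgds (−1.10), Egfl8 (−1.57), Hmcn1 (0.51), Ddc (4.75), Ccdc85a (0.38), Proser2 (1.04) and Fam13a (2.44) changed direction. With 6 rule genes, also chosen then, the values were 2.03% and 44.7%, 2063 lower than in other cells, 912 lower than in endothelial cells and 247 higher than in fibroblasts.

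Leaving out each suffix gave 0.291–0.492% of sorted and 4.33–4.67% of total brain, a smooth muscle share of 32.3–37.5%, 372–485 and 833–1558 genes against other cells, 129–146 and 501–554 against endothelial cells, 1009–2001 and 511–615 against fibroblasts, and 380–568 and 370–900 for smooth muscle. The 2001 came without suffix 3 and the 900 without suffix 2. Of the named genes' values under all alternatives, 508 stayed within the counting interval of the value reported, 294 moved outside it and 18 changed direction. Depth limits sorted brain most, where 3 counts are 58.4 CPM.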

Other observations

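Olfactory receptor genes known outside the nose were seen in the smooth muscle cells of total brain. They are in none of the gene lists and were picked after their values were seen. Olfr558 had 103 UMIs in 36 of 146 smooth muscle cells (43.2 CPM [35.3–52.4]), 1 UMI in 274 pericytes and 16 UMIs in all other kept cells (0.574 CPM). Olfr78 had 30 UMIs in 17 smooth muscle cells, 1 UMI in the pericytes and 56 UMIs in the other cells (2.01 CPM). In endothelial-poor cells, Olfr78 had 14 UMIs in 9 of 39 smooth muscle cells and 0 in 92 pericytes, and Olfr558 had 7 UMIs in 6 smooth muscle cells and 0 in pericytes. Neurons, with a median of 1688 UMIs, had an Olfr78 UMI in 36 of 5601 cells and an Olfr558 UMI in 8.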
